A study of Homo sapiens with 8 samples.

Results

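UHRF1 knockdown in parental HCT116 cells was described from 4 of the 8 RNA-seq libraries of the series, chosen by their labels. HCT116 is a human colorectal cancer cell line, labelled as colon, and the parental line is the unedited one. A pair of libraries came from cells with a control hairpin (shScr) and the other pair from cells with a hairpin against UHRF1 (shUHRF1), 2 libraries per group. The study set these cells beside a UHRF1 hypomorphic derivative to ask how far UHRF1 must fall before silenced genes return, and the libraries of that derivative were left out of the values below except where named. Per the study's methods, hairpins were delivered with lentivirus, infected cells were selected with puromycin and kept as uncloned stable pools. Both groups share the infection and the drug. The labels name the hairpin only as shUHRF1 and do not say whether libraries of a group came from separate infections or cultures, so p-values measure the spread between these libraries, which may be technical. The methods give a pair of harvest days for such pools and do not say which applies here. The study lists a single hairpin sequence against UHRF1. Effects of that hairpin on other transcripts and effects of UHRF1 loss therefore cannot be told apart here.

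PolyA RNA was sequenced as read pairs, and expression is given as TPM, an abundance scaled to gene length and to the same total in every library. Depth, recovered from the deposited coverage and FPKM, lay between 5.42 and 7.70 gigabases of aligned sequence, and the number of reads behind any 1 gene is unknown. A TPM of 0 is therefore given as listed at 0. The 4 libraries had the markers of an epithelial line. Of 14 epithelial markers 11 exceeded 1 TPM, with KRT8, KRT18, KRT19 and EPCAM above 300 TPM in every library, while the intestinal markers VIL1, LGALS4 and CDH17 stayed under 1 TPM. Mitochondrial transcripts took 15.7% to 15.9% of TPM in shScr and 16.3% to 17.5% in shUHRF1, and their part in the results was not tested. In bulk RNA, fewer cells that express a gene and less RNA per cell cannot be told apart.

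UHRF1 binds hemimethylated DNA behind the replication fork together with histone H3 and brings in DNMT1, the enzyme that copies DNA methylation to the new strand. Cells that lose UHRF1 lose methylation as they divide. In colorectal cancer cells this pair keeps many tumour suppressor and germline genes silent. UHRF1 (ENSG00000276043.5, GRCh38 chr19:4903080-4962154, plus strand) was at 87.5 and 98.4 TPM in the shScr libraries and at 31.7 and 32.7 TPM in the shUHRF1 libraries. The groups did not overlap, and 34.6% of the control level remained. On the log2(TPM + 1) scale used for all differences here, UHRF1 fell by 1.498 (SE 0.11, limma adjusted p = 0.000104). This is the check of the hairpin, and it leaves about 32 TPM of transcript in the cells.

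The other genes of DNA methylation did not pass the test, with 1 exception. DNMT1 was at 176 and 196 TPM in shScr and at 182 and 165 TPM in shUHRF1, so the groups overlapped. Its difference was -0.10, with a 95% interval of -0.31 to 0.11 (limma adjusted p = 0.626). UHRF2, the paralog of UHRF1, was at 36.5 and 34.0 TPM in shScr and at 35.4 and 34.4 TPM in shUHRF1. The de novo methyltransferases DNMT3A and DNMT3B and the demethylating enzymes TET1, TET2 and TET3 did not pass the test. MAT2A, which makes the methyl donor S-adenosylmethionine, was at 325 and 290 TPM in shScr and at 208 and 177 TPM in shUHRF1. It fell by 0.67 (SE 0.10, limma adjusted p = 0.00452). Of 23 tested genes of this list UHRF1, the target of the hairpin, and MAT2A fell and none rose, beside 2.5% and 1.56% of all tested genes. MAT2A did not pass with all 8 libraries of the series in the limma fit (adjusted p = 0.515).

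**Figure D1:**
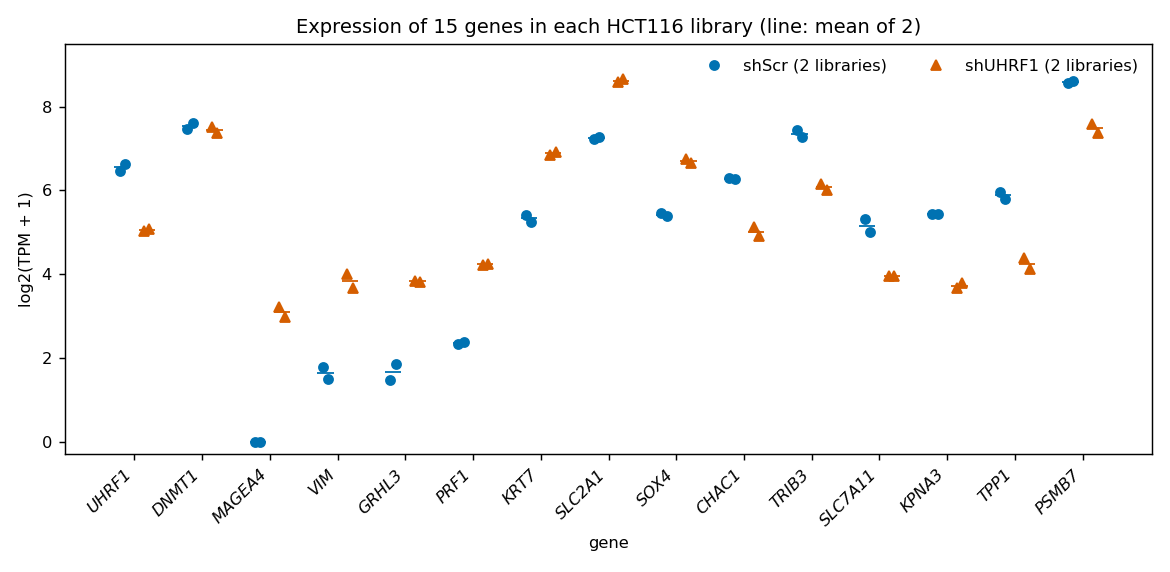
Level of 15 genes as log2(TPM + 1) in each of the 4 libraries, with circles for shScr, triangles for shUHRF1 and a line at the mean of each pair. Only DNMT1 overlaps between the groups, and MAGEA4 is listed at 0 in both shScr libraries.

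Across the transcriptome the knockdown moved few protein-coding genes by a large amount. A protein-coding gene was tested when any of the 4 libraries had it above 1 TPM, which left 12704. Of these, 198 were higher (1.56%) and 317 lower (2.5%) at an adjusted p below 0.05. A gene was called when its difference also exceeded 1 on the log2 scale. By that rule 51 genes rose (0.401%) and 38 fell (0.299%), and the libraries of the groups did not overlap for any of the 89. Such separation is common with 2 libraries a side, since 20.1% of all tested genes lay higher in both shUHRF1 libraries and 29.3% lower. For a single gene, permuting 2 against 2 libraries gives 0.333 as the smallest two-sided exact p, so every call rests on the spread that limma shares between genes.

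The size of the called set depended on the libraries in the fit. With all 8 libraries of the series sharing a single spread, 9 genes remained past both thresholds: MAGEA4, GRHL3, PRF1, INPP5D, KRT7 and MSX1 higher, and TPP1, CHAC1 and PSMB7 lower. Without shScr replicate 1 the count was 32, without shScr replicate 2 it was 34, and 19 of the 89 genes were called whichever library was left out. Of the 515 genes past the adjusted p, and so of the members counted for each group of genes that follows, far fewer passed with a library less: 40 without shScr replicate 1, 48 without shScr replicate 2, 347 without shUHRF1 replicate 1 and 134 without shUHRF1 replicate 2. The split between directions also moved. It was 44 higher and 21 lower with correction for GC content, but 36 higher and 55 lower without shUHRF1 replicate 1, 27 and 33 without shUHRF1 replicate 2, 16 and 18 without shScr replicate 2, and 37 and 41 with all annotated genes in the fit, so which direction held more calls depended on these choices. The called genes of the 2 directions stood at different control levels. Those that rose had a median of 1.74 TPM in shScr and those that fell 30.6 TPM, against 21.9 TPM for all tested genes. The rule fixes part of this contrast. On this scale a fall beyond 1 needs more than 1 TPM in shScr, while a rise can start at 0. Of the called genes with a mean under 1 TPM in shScr, 19 rose and 0 fell. The filter likewise admits a gene under 1 TPM in shScr only through its shUHRF1 libraries, in every list that follows. Between libraries, Pearson's r of log2(TPM + 1) across genes was 0.990 within shScr, 0.988 within shUHRF1 and 0.981 to 0.985 between groups.

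**Figure D2:**
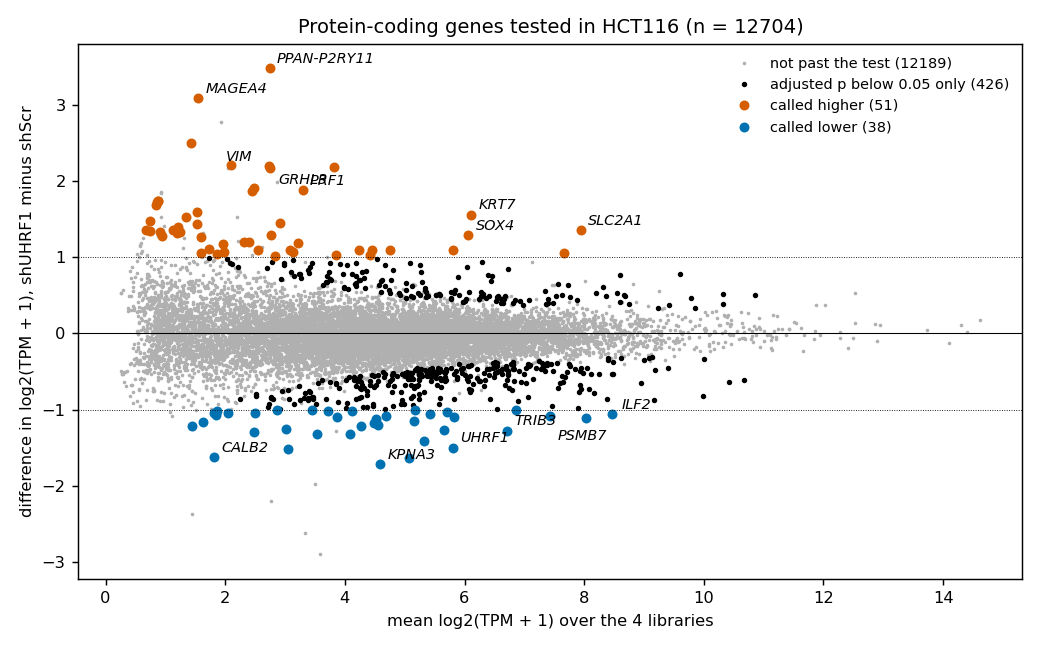
Difference in log2(TPM + 1), shUHRF1 minus shScr, against the mean level over the 4 libraries for 12704 protein-coding genes, with dotted lines at a difference of 1. The 51 called higher genes gather at low levels and the 38 called lower genes spread over middle and high levels.

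The genes that rose most were nearly silent in control cells and reached low levels after knockdown. MAGEA4 (ENSG00000147381.12, chrX:151912495-151925171), a cancer-testis antigen of the germline, was listed at 0 in both shScr libraries and at 8.24 and 6.85 TPM in the shUHRF1 libraries. Its difference of 3.09 (SE 0.25, limma adjusted p = 0.000109) depends on the added 1, and no ratio to 0 was formed. VIM, the intermediate filament protein of mesenchymal cells, was at 2.45 and 1.82 TPM in shScr and at 14.96 and 11.7 TPM in shUHRF1, a 6.24-fold rise with a difference of 2.19 (SE 0.20, limma adjusted p = 0.00027). GRHL3, a transcription factor of surface epithelium, rose 6.08-fold from 1.76 and 2.59 TPM to 13.3 and 13.2 TPM. MAGEA4 and GRHL3 were called under each of the 17 alternatives, and VIM lost its call where all 8 libraries shared a spread (limma adjusted p = 0.0516, the highest of its 17 alternatives).

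Some of the strongest rises were in genes better known from blood cells. PRF1, the pore-forming perforin of killer lymphocytes, was at 4.04 and 4.20 TPM in shScr and at 17.6 and 18.01 TPM in shUHRF1. That is a 4.32-fold rise with a difference of 1.88 (SE 0.16, limma adjusted p = 0.000154), called under each of the 17 alternatives. INPP5D, the inositol phosphatase SHIP1 of blood cells, rose 5.21-fold from 1.68 and 2.11 TPM to 10.9 and 8.83 TPM. LAT2, an adaptor of immune receptors, moved the other way and fell from 19.8 and 16.0 TPM to 8.41 and 8.18 TPM. It lost its call without shScr replicate 1, shScr replicate 2 or shUHRF1 replicate 2. In the list of 10 tested leukocyte genes met in carcinoma cells, 3 rose and 1 fell, beside 1.56% and 2.5% of all tested genes. The third that rose was the actin regulator CORO1A. Leukocyte markers proper were near the floor in both groups: 11 of 12 stayed under 1 TPM in each library, PTPRC, CD3E, MS4A1 and CD2 were listed at 0 throughout, and their summed level was 14.6 to 15.9 TPM in shScr and 8.37 to 9.62 TPM in shUHRF1, most of it CD68, which fell from 12.2 and 13.7 TPM to 6.27 and 7.31 TPM.

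Further genes rose from a control level of 0. GJA1, the gap junction protein connexin 43, was listed at 0 in both shScr libraries and at 2.58 and 2.11 TPM in the shUHRF1 libraries. GMFG, a regulator of actin branching in blood cells, was at 2.38 and 2.22 TPM after knockdown, and CAVIN2, a caveola protein, at 2.19 and 2.27 TPM, both from 0. In all, 9 tested genes were listed at 0 in both control libraries and above 1 TPM in both knockdown libraries, 7 of them called, and no gene showed the opposite pattern. GJA1, GMFG and CAVIN2 lost their calls when any 1 library was left out. SUSD2, a membrane protein, rose 4.93-fold from 1.35 and 2.50 TPM to 9.27 and 9.69 TPM, and S100P, a calcium-binding protein of epithelial tumours, rose 6.01-fold from 0.509 and 0.824 TPM to 4.35 and 3.66 TPM. SUSD2 was lost without shUHRF1 replicate 2, and S100P when any 1 library was left out.

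A share of the highest rises belonged to gene models that overlap their neighbours, where StringTie must divide the same reads. PPAN-P2RY11, a readthrough of adjacent genes, was at 0 and 3.04 TPM in shScr and at 17.2 and 26.5 TPM in shUHRF1. Summed with P2RY11 it came to 67.7 and 63.2 TPM in shScr and to 62.3 and 53.5 TPM in shUHRF1, lower after knockdown. That sum leaves out PPAN, the other gene of the readthrough, so it is not the total of the locus. The call of PPAN-P2RY11 was lost without either shUHRF1 library. ENSG00000257524 rose from 7.44 and 4.15 TPM to 38.5 and 21.9 TPM, while ST6GALNAC6, a sialyltransferase gene that lies within it on the same strand, fell from 33.9 and 38.9 TPM to 11.8 and 23.2 TPM. Their sum was 41.3 and 43.0 TPM in shScr and 50.3 and 45.1 TPM in shUHRF1. AK1 overlaps the same model on that strand. ENSG00000260342, ENSG00000288564 and ENSG00000284057 among the 15 highest rises and ENSG00000271741 among the 15 largest falls overlap expressed genes as well. Of the 89 called genes, 17 shared a strand and a stretch of genome with another gene above 1 TPM, 12 called higher and 5 called lower, and their values are uncertain.

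Near their first listed start, the genes that rose from low levels held few CpG sites. CpG is the dinucleotide that UHRF1 and DNMT1 act on. The sequences below run from 250 bases before to 50 after the first listed start of each gene (RefSeq, GRCh38.p14), with each CG in capitals. They show the promoters of 4 genes that rose and, for contrast, of UCHL1, a gene silenced with a methylated promoter in colorectal cancer, at most 0.0775 TPM in any library here. Positions are MAGEA4 at chrX:151912224-151912523 on the plus strand, VIM at chr10:17227991-17228290 on the plus strand, GRHL3 at chr1:24319107-24319406 on the plus strand, PRF1 at chr10:70602692-70602991 on the minus strand and UCHL1 at chr4:41256678-41256977 on the plus strand. RefSeq lists 5 starts for MAGEA4 and 2 for GRHL3, and which of them is used in these cells was not measured.
MAGEA4: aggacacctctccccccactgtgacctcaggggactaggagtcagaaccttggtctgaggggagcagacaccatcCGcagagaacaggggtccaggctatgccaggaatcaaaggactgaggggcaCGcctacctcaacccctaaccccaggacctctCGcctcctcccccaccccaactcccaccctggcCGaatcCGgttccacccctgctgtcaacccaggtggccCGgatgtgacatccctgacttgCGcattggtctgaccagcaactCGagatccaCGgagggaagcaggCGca
VIM: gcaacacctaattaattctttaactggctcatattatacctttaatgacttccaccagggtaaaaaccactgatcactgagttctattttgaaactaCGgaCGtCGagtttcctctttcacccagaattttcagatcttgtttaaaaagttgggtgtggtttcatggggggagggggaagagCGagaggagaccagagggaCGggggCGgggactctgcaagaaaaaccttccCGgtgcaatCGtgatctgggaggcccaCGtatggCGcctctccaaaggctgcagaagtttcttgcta
GRHL3: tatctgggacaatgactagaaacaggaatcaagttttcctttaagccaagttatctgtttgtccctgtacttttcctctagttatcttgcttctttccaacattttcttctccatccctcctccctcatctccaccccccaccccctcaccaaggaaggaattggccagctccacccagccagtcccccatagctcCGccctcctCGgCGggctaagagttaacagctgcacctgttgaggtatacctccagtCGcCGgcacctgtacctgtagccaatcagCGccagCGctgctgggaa
PRF1: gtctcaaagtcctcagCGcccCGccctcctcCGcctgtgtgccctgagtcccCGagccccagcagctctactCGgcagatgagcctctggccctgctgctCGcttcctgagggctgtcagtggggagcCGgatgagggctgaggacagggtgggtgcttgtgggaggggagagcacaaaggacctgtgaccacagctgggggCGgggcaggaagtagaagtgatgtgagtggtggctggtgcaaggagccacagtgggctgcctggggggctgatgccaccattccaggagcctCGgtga
UCHL1: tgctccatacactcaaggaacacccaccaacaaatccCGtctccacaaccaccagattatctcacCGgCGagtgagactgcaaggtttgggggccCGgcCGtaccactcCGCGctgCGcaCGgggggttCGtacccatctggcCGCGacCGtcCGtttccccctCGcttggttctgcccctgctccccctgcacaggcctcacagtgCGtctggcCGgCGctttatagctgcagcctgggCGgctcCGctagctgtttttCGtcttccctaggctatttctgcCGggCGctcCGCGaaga
These 300 bases hold 10 CG in MAGEA4, 10 in VIM, 7 in GRHL3, 9 in PRF1 and 25 in UCHL1. Across the 10206 tested genes with a listed promoter the median was 26. It was 10 in the 31 called higher genes with a promoter and 27.5 in the 26 called lower genes. Low expression goes with fewer CG in general, as the 1757 tested genes under 5 TPM in shScr had a median of 21. The 23 called higher genes under 5 TPM had a median of 10, and levels under this cut were not matched. At 5 TPM or more the 8 called higher genes had a median of 24, beside 27 for tested genes. The 144 genes with a promoter that rose past the adjusted p, at any size, had a median of 24. When the richest of the listed starts was taken for each gene, the medians were 28 for all tested genes, 12 for called higher and 31 for called lower genes. These are descriptions of the letters in this window, and methylation itself was not analysed here. CG beyond the window were not counted, so a low count does not mean that a gene lacks a CpG-rich stretch nearby.

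The 10 silenced tumour suppressor genes that the study follows stayed at the floor. UCHL1, LXN, SFRP1, ICAM4, FBLN2, GATA4, GATA5, TFF2, TFF3 and HIC1, which include suppressors of colorectal growth and regulators of gut differentiation, were all under 1 TPM in each of the 4 libraries and were not tested. Summed over the 10 genes the level was 0.899 and 0.657 TPM in shScr and 0.558 and 0.975 TPM in shUHRF1. GATA4, TFF2 and TFF3 were listed at 0 in all 4 libraries. FBLN2 was at 0.429 and 0.0934 TPM in shScr and at 0.258 and 0.131 TPM in shUHRF1, so the groups overlapped. A change at these levels was not detectable, since the reads behind them are unknown.

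Cancer-testis genes, whose promoters are methylated in most somatic cells, answered in a few members. Of 77 listed genes 13 passed the level filter and 28 were listed at 0 in every library. MAGEA4 and PAGE1 rose and none fell, beside 1.56% and 2.5% of all tested genes. The median difference was 0.37 over the 13, beside -0.03 over all tested genes. MAGEA4, MAGEA11, MAGEA12, GAGE2A, PAGE1 and TEX14 passed the filter only through their shUHRF1 libraries. The filter therefore favours rises in this list and a median above that of all genes. PAGE1, a germline antigen on the X chromosome, was listed at 0 in both shScr libraries and at 2.12 and 1.09 TPM in shUHRF1 (difference 1.35, SE 0.33, limma adjusted p = 0.0461), and was called in only 1 of the 17 alternatives. MAGEA11 and GAGE2A did not pass (limma adjusted p = 0.0659 and 0.051). Like MAGEA4 and PAGE1, they are among the 9 tested genes that went from 0 to above 1 TPM. After knockdown MAGEA11 was at 1.46 and 1.09 TPM and GAGE2A at 1.47 and 1.28 TPM. MAGEB17 moved the other way, from 6.36 and 3.93 TPM to 2.46 and 1.66 TPM. Members already active in control cells, MAGEB17 among them, did not pass. MAGEB2 was at 187 and 184 TPM in shScr and at 162 and 157 TPM in shUHRF1, and MAGEA3 at 86.5 and 85.0 against 92.3 and 84.8 TPM. Interferon-stimulated genes, which react to viral and viral-like nucleic acid, gave 3 higher and 1 lower among 51 tested, beside 1.56% and 2.5% of all tested genes, with a median of 0.14. The 3 were IFI27, TRIM22 and IFI6, and the 1 was DDX60L. IFI27 went from 4.90 and 2.55 TPM to 9.81 and 13.3 TPM, and IFI6 from 16.2 and 19.3 TPM to 33.5 and 34.1 TPM. IFI27 was lost without shScr replicate 2 or either shUHRF1 library, and TRIM22 when any 1 library was left out.

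Keratins of simple epithelium were among the genes that rose. KRT7 was at 41.7 and 37.0 TPM in shScr and at 115 and 121 TPM in shUHRF1, a 2.99-fold rise with a difference of 1.56 (SE 0.10, limma adjusted p = 8.38e-05), called under each of the 17 alternatives. KRT8 went from 1565 and 1539 TPM to 2254 and 2143 TPM, and its partner KRT18 from 1055 and 1072 TPM to 1547 and 1509 TPM. KRT23 went from 14.4 and 17.1 TPM to 31.6 and 31.8 TPM. Of 13 tested keratins these 4 rose and none fell, beside 1.56% and 2.5% of all tested genes, with a median of 0.22. KRT19, at 1316 and 1370 TPM in shScr and 1449 and 1473 TPM in shUHRF1, did not pass. Without shScr replicate 1 only 1 keratin passed, and without shScr replicate 2 there were 2.

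Other epithelial genes split between directions. Among 38 tested epithelial regulators and barrier genes, GRHL3, S100P and LY6D rose, and ESRP2, CLDN7 and PKP3 fell. Of all tested genes 1.56% rose and 2.5% fell. LY6D, a keratinocyte surface protein, went from 0.0901 and 0.407 TPM to 2.20 and 1.82 TPM and lost its call when any 1 library was left out. ESRP2, an epithelial splicing factor, fell by 0.63 from 54.6 and 50.7 TPM to 34.4 and 33.1 TPM (SE 0.11, limma adjusted p = 0.0106). The adhesion genes CDH1 and EPCAM did not pass, with differences of -0.21 and -0.26.

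Mesenchymal genes gave 4 higher and 1 lower of 17 tested, beside 1.56% and 2.5% of all tested genes, with a median of 0.14. SPARC and TWIST1 passed the level filter only through their shUHRF1 libraries, so the filter favours a rise in them. Beside VIM, the matrix protein SPARC was listed at 0 in both shScr libraries and at 2.23 and 1.39 TPM in shUHRF1. ACTA2, smooth muscle actin, rose 2.14-fold from 10.7 and 7.74 TPM to 18.3 and 21.2 TPM, and the membrane protease MMP14 went from 18.7 and 17.3 TPM to 28.3 and 28.7 TPM. SPARC and ACTA2 were lost when any 1 library was left out. TGFB1 fell by 0.41. VIM, SPARC, ACTA2, MMP14 and TGFB1 did not pass with all 8 libraries in the limma fit (adjusted p from 0.0516 to 0.614). Of 8 fibroblast markers, 7 stayed under 1 TPM in every library and DCN and LUM were listed at 0, and the summed level of the 8 was 21.3 to 24.0 TPM in shScr and 22.7 to 26.7 TPM in shUHRF1, nearly all of it COL1A1. The 5 endothelial markers summed to less than 1 TPM in each library.

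Developmental regulators were among the calls at higher levels. SOX4, a transcription factor of progenitor cells, rose 2.48-fold from 42.9 and 40.8 TPM to 107 and 100.3 TPM, with a difference of 1.29 (SE 0.10, limma adjusted p = 0.000109). It was the 1 member of 16 tested endoderm and intestinal regulators to pass, beside 1.56% of all tested genes that rose. MSX1, a homeobox gene, named here after its values were seen, went from 139.2 and 139.2 TPM to 299.9 and 283 TPM. Among 17 tested WNT target genes, BAMBI and AXIN2 rose and DKK1 fell, beside 1.56% and 2.5% of all tested genes. BAMBI, a decoy receptor of TGF-beta signalling, went from 14.3 and 13.8 TPM to 30.8 and 28.3 TPM, and AXIN2, a feedback inhibitor of the pathway, from 6.93 and 6.98 TPM to 15.4 and 12.98 TPM. BAMBI lost its call without either shScr library or shUHRF1 replicate 1. MYC, another target, did not pass, with a difference of -0.17.

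A gene of glucose uptake rose from a level above 100 TPM. SLC2A1, which encodes the glucose transporter GLUT1, was at 150.0 and 155 TPM in shScr and at 382 and 403 TPM in shUHRF1, a 2.57-fold rise with a difference of 1.36 (SE 0.08, limma adjusted p = 6.09e-05). SLC2A3, the neuronal type transporter GLUT3, rose 2.76-fold from 1.63 and 1.42 TPM to 4.54 and 3.87 TPM and was lost when any 1 library was left out. Of 9 tested facilitative glucose transporters these 2 rose and none fell, beside 1.56% and 2.5% of all tested genes. Genes downstream of uptake did not rise. Of 34 tested hypoxia and glycolysis genes, SLC2A1 and SLC2A3 were the only ones that rose, and HK2, NDRG1, VEGFA and LDHA fell, with a median of -0.21. HK2, a hexokinase that holds glucose in the cell, fell by 0.68 from 45.8 and 46.9 TPM to 30.4 and 26.8 TPM (SE 0.12, limma adjusted p = 0.0098). Under median-ratio scaling, quantile normalization or GC correction 1 of these 4 falls passed. SLC2A1 held its call when each library was left out in turn and reached an adjusted p of 0.0505 with all 8 libraries in the limma fit, the highest of its 17 alternatives.

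KPNA3 led the 15 largest falls, of which TRIB3, CHAC1 and SLC7A11 are described with the stress response. KPNA3 (ENSG00000102753.10, chr13:49699320-49792682), an importin that carries proteins into the nucleus, was at 42.4 and 42.7 TPM in shScr and at 11.7 and 12.8 TPM in shUHRF1. It fell by 1.71 (SE 0.12, limma adjusted p = 0.000104). TPP1, a lysosomal peptidase, fell 3.20-fold from 61.8 and 54.4 TPM to 19.9 and 16.4 TPM. It was the 1 lysosomal gene of 45 tested to pass, beside 2.5% of all tested genes that fell. TPP1 was called under each of the 17 alternatives, and KPNA3 was lost with all 8 libraries in the limma fit (adjusted p = 0.113, the highest of its 17 alternatives). CALB2, the calcium buffer calretinin, fell 5.20-fold from 5.67 and 4.67 TPM to 0.998 and 0.993 TPM.

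Other large falls touched receptors, ligands and enzymes. IL15RA, the receptor chain that presents interleukin 15, went from 13.9 and 12.3 TPM to 4.36 and 3.50 TPM. NT5E, the ectonucleotidase CD73 that makes adenosine, fell 2.71-fold from 65.9 and 62.3 TPM to 26.7 and 20.6 TPM and was called whichever library was left out. KISS1R, the kisspeptin receptor, fell 3.03-fold from 9.17 and 6.51 TPM to 3.04 and 2.14 TPM, and WNT7B, a secreted WNT ligand, fell 2.72-fold from 12.04 and 10.9 TPM to 4.33 and 4.12 TPM. Among enzymes, ACAA2, a thiolase of mitochondrial fatty acid oxidation, UBE2J1, a ubiquitin-conjugating enzyme of the endoplasmic reticulum, and CPA4, a secreted carboxypeptidase, fell 2.74-fold, 2.44-fold and 2.64-fold. CALB2, KISS1R, WNT7B, UBE2J1 and CPA4 lost their calls without shScr replicate 1 and also without shScr replicate 2, KISS1R also without shUHRF1 replicate 2, and IL15RA and ACAA2 without shScr replicate 1.

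A few abundant transcripts fell to a little under 50% of control. PSMB7, a catalytic subunit of the proteasome, went from 379 and 390 TPM to 190.3 and 166 TPM, a difference of -1.11 (SE 0.09, limma adjusted p = 0.000109). Of 33 tested, PSMB7 fell, PSMA4 rose and 31 did not pass, beside 2.5% lower and 1.56% higher of all tested genes. Their median was -0.14, and 26 of the 33 lay lower in both shUHRF1 libraries, beside 29.3% of all tested genes. ILF2, an RNA-binding factor, and SRM, which makes spermidine, were named after their values were seen. ILF2 went from 505 and 518 TPM to 239 and 252 TPM, and SRM from 242 and 256 TPM to 121 and 114 TPM.

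The list with the largest share of members past the test was the integrated stress response, whose genes fell. This response limits translation when amino acids or folding capacity run short, and its transcription factor ATF4 switches on genes for amino acid uptake, amino acid synthesis and tRNA charging. Of 37 listed genes 34 were tested, and 25 fell, none rose and 9 did not pass, against 2.5% of all tested genes that fell. The median difference was -0.49, beside -0.03 for all tested genes, and 31 of the 34 lay lower in both shUHRF1 libraries, beside 29.3% of all tested genes. Summed over the list the level was 7013 and 6747 TPM in shScr and 4692 and 4486 TPM in shUHRF1. No member rose under any alternative, and between 31 and 32 of its tested members had a difference below 0 in each of them.

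The members that fell include the regulator and its best known targets. ATF4 itself was at 660 and 712 TPM in shScr and at 478 and 500.1 TPM in shUHRF1, a fall of 0.49 (SE 0.08, limma adjusted p = 0.00725). TRIB3, a pseudokinase that feeds back on ATF4, fell 2.45-fold from 172 and 154 TPM to 70.0 and 63.2 TPM. CHAC1, which degrades glutathione, went from 77.6 and 76.0 TPM to 33.8 and 29.1 TPM, a fall of 1.27 (SE 0.11, limma adjusted p = 0.00022) that was called under each of the 17 alternatives. STC2, a secreted glycoprotein, went from 74.8 and 73.6 TPM to 36.1 and 35.3 TPM. SLC7A11, the cystine importer, fell 2.41-fold from 38.7 and 31.3 TPM to 14.6 and 14.4 TPM and lost its call without shScr replicate 1, and SLC7A5, the importer of large neutral amino acids, went from 806 and 748 TPM to 445 and 399 TPM. All 4 amino acid transporters of the list, 6 of its 7 tRNA synthetases, 4 of 6 transcription factors and 3 of 6 enzymes of serine and one-carbon metabolism fell. ATF5, PPP1R15A, ATF3 and PHGDH, named after their values were seen, did not pass, with differences of 0.19, 0.15, -0.07 and -0.29.

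The count of 25 depended on the libraries as the count of all genes did. It was 5 without shScr replicate 1, 8 without shScr replicate 2, 21 without shUHRF1 replicate 1, 12 without shUHRF1 replicate 2 and 1 with all 8 libraries in the fit. The median stayed between -0.57 and -0.45 under the 17 alternatives. The list was chosen with earlier results of these data known, so its count is a description.

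**Figure D3:**
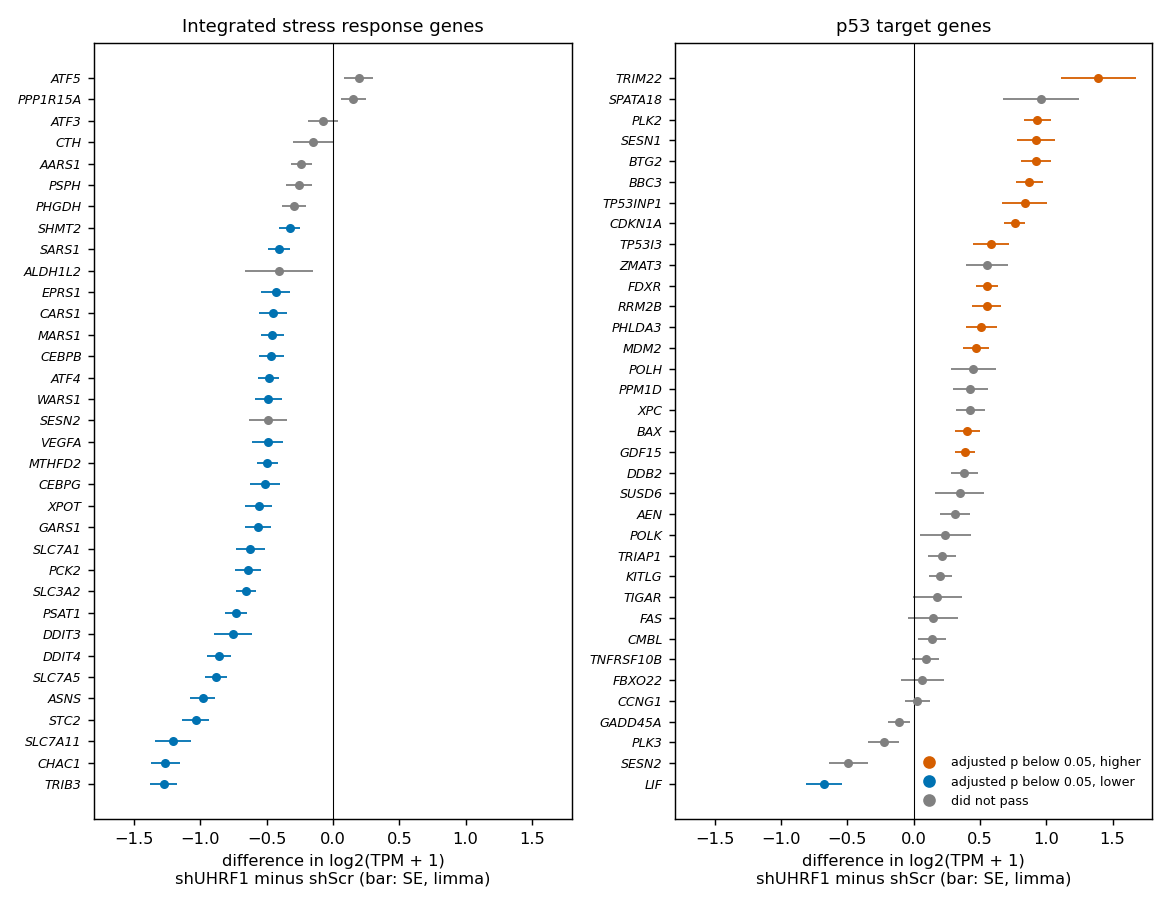
Difference in log2(TPM + 1), shUHRF1 minus shScr, for each tested member of the integrated stress response list (left, 34 genes) and the p53 target list (right, 35 genes), with bars for the standard error of the limma fit. On the left 25 genes fell and none rose, and on the right 14 rose and LIF fell.

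ATF4 binds composite sites with the core TGATGNAA, and the same promoter windows were searched for these letters on both strands (read on the printed strand as TGATGNAA or TTNCATCA, with N for any base). They occurred in 6 of the 22 stress response genes that fell and have a listed promoter, in 2 of the 7 listed members with a promoter that did not pass (AARS1 and ATF3), in 1.59% of the 10206 tested genes and in 3.67% of all listed promoters. These counts do not set the members that fell apart from those that did not pass. The windows of 3 of these genes are shown with the match in capitals: CHAC1 at chr15:40953221-40953520 on the plus strand, ASNS at chr7:97872359-97872658 on the minus strand and SLC3A2 at chr11:62881449-62881748 on the plus strand. They belong to a glutathione-degrading enzyme, to asparagine synthetase and to the partner chain of SLC7A5 and SLC7A11.
CHAC1: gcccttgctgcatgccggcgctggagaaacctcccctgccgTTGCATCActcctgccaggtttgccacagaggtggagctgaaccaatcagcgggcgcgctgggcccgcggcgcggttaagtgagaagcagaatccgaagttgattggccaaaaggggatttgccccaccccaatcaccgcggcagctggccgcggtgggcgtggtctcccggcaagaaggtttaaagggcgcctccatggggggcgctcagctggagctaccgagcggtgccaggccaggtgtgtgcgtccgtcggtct
ASNS: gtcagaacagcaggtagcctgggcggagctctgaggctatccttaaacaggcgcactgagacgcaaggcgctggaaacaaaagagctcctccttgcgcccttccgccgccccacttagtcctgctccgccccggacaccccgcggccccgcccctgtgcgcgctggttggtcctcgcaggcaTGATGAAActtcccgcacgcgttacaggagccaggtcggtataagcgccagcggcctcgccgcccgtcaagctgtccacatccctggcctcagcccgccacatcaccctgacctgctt
SLC3A2: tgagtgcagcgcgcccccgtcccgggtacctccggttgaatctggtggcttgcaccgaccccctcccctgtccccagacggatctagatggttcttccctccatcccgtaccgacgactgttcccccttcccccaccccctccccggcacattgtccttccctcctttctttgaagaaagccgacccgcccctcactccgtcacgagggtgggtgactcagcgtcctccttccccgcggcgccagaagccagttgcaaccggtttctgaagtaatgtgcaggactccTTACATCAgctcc
In ASNS the match reads TGATGNAA on the printed strand, and in CHAC1 and SLC3A2 it reads TTNCATCA. ASNS, named after its values were seen, fell by 0.98 from 357 and 312 TPM to 175 and 162 TPM (SE 0.09, limma adjusted p = 0.000282). SLC3A2, named likewise, fell by 0.66 from 633 and 609 TPM to 401 and 387 TPM (SE 0.08, limma adjusted p = 0.00106). RefSeq lists 2 starts for ASNS and 3 for SLC3A2, and the first was taken. The other genes that fell and hold the letters were CARS1, SLC7A1 and MARS1. A match describes these letters only, and binding was not measured.

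To see how far the fall reached, whole families were counted, chosen after the values of the stress response genes were seen. Cytosolic aminoacyl-tRNA synthetases, which load amino acids on tRNA, gave 7 lower and none higher of 20 tested, with a median of -0.29. Of the 7, CARS1, EPRS1, GARS1, MARS1, SARS1 and WARS1 were already counted in the stress response list, and only YARS1 was added. The shares over all tested genes were 2.5% lower and 1.56% higher. The 7 became 4 under median-ratio scaling and 0 under GC correction or without either shScr library or shUHRF1 replicate 2. Their mitochondrial counterparts gave none in either direction of 17 tested, with a median of -0.06. The difference between these families was not tested. Among 25 tested amino acid transporters 7 fell and 1 rose, with a median of -0.33, and without shScr replicate 1 a single transporter fell. The 1 that rose was SLC43A2, a transporter of neutral amino acids, from 9.51 and 8.68 TPM to 16.5 and 15.4 TPM. SLC1A5, the glutamine importer, went from 370 and 361 TPM to 269 and 235 TPM.

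Targets of p53, which stops the cell cycle and starts apoptosis after damage, moved the other way. HCT116 cells carry wild-type p53. Of 36 listed genes 35 were tested, and 14 rose against 1.56% of all tested genes, LIF fell and 20 did not pass. The median was 0.40 beside -0.03 for all tested genes, and 26 of the 35 lay higher in both shUHRF1 libraries, beside 20.1% of all tested genes. PLK2, a kinase of the stress response, was at 57.3 and 53.7 TPM in shScr and at 113 and 101 TPM in shUHRF1, a difference of 0.93 (SE 0.10, limma adjusted p = 0.000788). BTG2, an antiproliferative factor, went from 22.5 and 25.1 TPM to 46.4 and 45.5 TPM, and SESN1, an antioxidant sestrin, from 12.8 and 11.6 TPM to 25.9 and 22.3 TPM. TRIM22, also counted with the interferon genes, was the 1 called member and went from 0.474 and 0.384 TPM to 3.40 and 2.19 TPM.

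Named after their values were seen, the central effectors rose by less than 1 on the log2 scale. CDKN1A, the cell cycle inhibitor p21, was at 285 and 307 TPM in shScr and at 519.5 and 485 TPM in shUHRF1, a difference of 0.76 (SE 0.08, limma adjusted p = 0.000739). BBC3, the apoptosis factor PUMA, went from 47.2 and 47.9 TPM to 83.0 and 92.9 TPM. MDM2, the ligase that degrades p53, went from 45.8 and 44.8 TPM to 63.3 and 62.9 TPM. The count of 14 fell to 1 without shScr replicate 1, 3 without shScr replicate 2, 6 without either shUHRF1 library and 0 with all 8 libraries in the fit. Between 29 and 32 tested members had a difference above 0 under the 17 alternatives.

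Genes of proliferation passed at about the 2.5% share of all tested genes that fell. Of 49 tested DNA replication genes 1 fell (GINS1) and none rose, with a median of -0.01, and of 51 tested mitotic genes 1 fell (ANLN) and none rose, with a median of 0.08. Among 17 tested CDK inhibitors and G1 cyclins 4 rose and none fell, beside 1.56% of all tested genes that rose. Beside CDKN1A these were the inhibitors CDKN1B and CDKN2D and the kinase CDK6. None of the 4 passed with all 8 libraries in the limma fit (adjusted p = 0.143 for CDKN1A, 0.825 for CDKN1B, 0.412 for CDKN2D and 0.620 for CDK6). CDKN2D, the inhibitor p19, went from 23.2 and 26.7 TPM to 38.9 and 41.2 TPM.

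Genes of growth factor signalling fell in part. Among 28 tested genes of MAPK output and EGFR ligands 7 fell and none rose, with a median of -0.17, and 18 lay lower in both shUHRF1 libraries, beside 2.5% and 29.3% of all tested genes. HBEGF, an EGFR ligand, was at 14.7 and 14.2 TPM in shScr and at 6.67 and 6.76 TPM in shUHRF1, a difference of -1.002 (SE 0.15, limma adjusted p = 0.00555) that lost its call when any 1 library was left out. ERBB2, the receptor HER2, went from 59.2 and 56.1 TPM to 39.6 and 32.3 TPM, and FOS, an early response transcription factor, from 273 and 213 TPM to 154 and 154 TPM. The count was 0 without shScr replicate 1, 1 without shScr replicate 2, 4 without shUHRF1 replicate 1 and 0 without shUHRF1 replicate 2. Of 20 tested metallothionein and antioxidant genes, TXNRD1, GCLC, SRXN1 and SLC7A11 fell and DHRS2 rose, beside 2.5% and 1.56% of all tested genes. SLC7A11 was also counted with the stress response. TXNRD1, thioredoxin reductase, went from 322 and 311 TPM to 202 and 179 TPM. Of 21 tested laminin and integrin genes, counted after values were seen, 5 fell and 2 rose, beside 2.5% and 1.56% of all tested genes. The basement membrane chain LAMB3 went from 50.3 and 47.1 TPM to 28.6 and 26.6 TPM, and COL17A1, the hemidesmosome collagen counted with them, from 5.54 and 5.08 TPM to 12.1 and 10.7 TPM.

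The remaining lists held few members past the test, beside 1.56% higher and 2.5% lower of all tested genes. Of 76 tested subunits of oxidative phosphorylation ATP5MF rose and NDUFS3 fell, and of 78 cytosolic ribosomal proteins RPS20 alone fell. NDUFS3, of respiratory complex I, went from 172 and 184 TPM to 106 and 93.2 TPM. Among 21 tested genes of the unfolded protein response HSPA5 and SYVN1 fell, with a median of -0.14. In antigen presentation by MHC class I, 21 genes tested, PSMB10 rose and HLA-B fell from 132 and 149 TPM to 90.7 and 90.7 TPM. Of 18 tested NF-kB targets and chemokines CXCL16 fell, and the median was -0.25. Histone genes gave 2 higher (H2AC6 and H3-3B) of 23 tested, imprinted genes 1 lower (GRB10) of 28, and genes of H3K9 methylation and the HUSH complex CBX1 higher and KDM4B lower of 25.

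Genes outside the protein-coding class were described from a fit over all 16946 annotated genes past the filter. Of 4242 such genes 5 were called higher (0.118%) and 10 lower (0.236%). ENSG00000228496, a long noncoding RNA, was at 0 and 0.275 TPM in shScr and at 5.41 and 3.87 TPM in shUHRF1. SIGLEC22P, a pseudogene, went from 0.18 and 0.299 TPM to 3.22 and 2.78 TPM. Among those that fell, LINC02454, an intergenic RNA, went from 11.3 and 6.03 TPM to 3.14 and 1.39 TPM. SLC7A5P1, a pseudogene of SLC7A5, went from 2.997 and 7.12 TPM to 0.886 and 0.722 TPM, and reads of so near a copy cannot be assigned with certainty. SNORA9B and MIR6730 also fell, but polyA libraries measure such short RNAs poorly. When any 1 library was left out, none of the 15 remained called.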

How the data were processed

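The authors trimmed the reads, mapped them to GRCh38 with HISAT2 2.0.4 and quantified genes with StringTie 2.1.4, as the methods and submitters' processing notes say. The deposited tables hold 3 values per gene: coverage, which the authors did not scale for depth, FPKM, scaled by the authors to gene length and aligned bases, and TPM, scaled by the authors to gene length and a total of 1000000. Depth came from the most common ratio of coverage to FPKM. Of 60649 identifiers 60463 matched GENCODE release 44. Protein-coding genes with TPM above 1 in at least 1 of the 4 libraries were tested in limma 3.58.1 (R 4.3.3) on log2(TPM + 1), with group as the only term, variances following the mean level and Benjamini-Hochberg adjustment over all tested genes. The study's DESeq2 needs counts and was not run, so limma takes its place. The fit was tried on simulated data drawn from its own estimates of spread, with large changes in genes away from the floor only. That check does not cover small changes or genes near the floor. Other steps used Python 3.11.15.

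Genes named were UHRF1, the DNA methylation genes, the 10 genes the study labels, the 15 largest called changes in each direction, the called or passing members of each list up to 4 with its 2 highest expressed members, and the 5 largest calls of other biotypes in each direction. The members, lists and tests were chosen with earlier results of these data known, and the families of tRNA synthetases, amino acid and glucose transporters, laminins and integrins after seeing the data. Promoters came from the RefSeq table for GRCh38.p14, matched by symbol. The 17 alternatives changed the pseudocount, filter, gene set, libraries, unit, scaling, variance model, duplicate records, replicate block or GC content. The replicate numbers were not shown to pair the libraries, since the deviations of equal numbers correlated at r = 0.0571 in 2 groups. A single correlation over so few libraries cannot exclude pairing. Results for 1 gene list are not reported here.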

Additional observations from a re-analysis of the deposited data

How the results depend on the processing

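UHRF1 kept its direction under all 17 alternatives, between -1.58 and -1.41 on the log2 scale, and missed the threshold in 1, with all 8 libraries in the fit (-1.498, limma adjusted p = 0.0564, against 7.38e-09 to 0.0309 under the others). The 89 calls became 29 with no TPM filter, 9 with all 8 libraries and 26 without a variance trend, and 32 to 91 when 1 library was left out. The 515 genes past the adjusted p became 47, 9 and 26 in the same order, 340 with all annotated genes in the fit, and 40 to 347 with 1 library left out. Genes of the lists past the test, 108 in all, became 22, 8 and 14, and 18 to 89. Stress response genes that fell, 25, became 7, 1 and 2, also 15 with GC correction, and 5 to 21. The 14 p53 targets that rose became 3, 0 and 0, and 1 to 6. The 30 largest changes kept 14, 6 and 19 calls, and 15 to 22. The 15 calls of other biotypes were 14 with a pseudocount of 0.1, 13 with the mean filter and 0 whichever library was left out. With a replicate block 89 genes were called, 83 of them the same, and 575 passed. As the numbers were not shown to pair the libraries, the block is only an alternative. FPKM gave 62 calls, median-ratio scaling 71, quantile normalization 68, GC correction 65 and both GC correction and block 71. For the counts that moved, the cause was not tested, except that fewer libraries were in the fits that left 1 out.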
